A study of Mus musculus with 15 samples.

Results

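Homeobox and POU factors are DNA-binding proteins that mark the territories of the developing brain and the kinds of neuron each one makes. The genes described here belong to the DLX, GSX, NKX, LIM, PAX, POU, Iroquois, MEIS, PBX, ONECUT and sine oculis families and to a few single homeobox genes, and most of them are known for lineages other than midbrain dopamine neurons. Members were all gene symbols of these families that match a fixed name pattern, whatever their values, and 66 of the 21566 genes in the sorted gene table matched. The time series gene table held 13 of them among 10781 genes. Circular RNAs (circRNAs), in which a later exon end is joined back to an earlier exon start, came from 5 of these genes in the sorted experiment (9 of 3927 circRNAs) and from 6 in the time series (15 of 7528).

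Cells were sorted by fluorescence from ventral midbrains of the Pitx3-GFP mouse line, whose green fluorescent protein (GFP) marks cells that use Pitx3, a gene of dopamine neurons. At embryonic day 14 (E14), 3 libraries of GFP- cells were compared with 3 libraries of GFP+ cells, and a separate time series held 3 libraries of GFP+ cells from each of 3 ages, which were E14, E16 (2 days later) and P0 (newborn). The Pitx3-GFP genotype is given for all 15 samples, GFP- cells included, and no allele or treatment other than the sort is named. Midbrains of 3 litters were used, but the labels do not tie a library to a litter. P-values here therefore reflect how libraries vary, and some of that variation may be technical.

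The labels call every sample dopamine neurons, and for the GFP- libraries the markers go against that name. The 6 dopaminergic markers summed to 3441 to 4334 normalized reads in the GFP- libraries and to 64783 to 69701 in the GFP+ libraries. In GFP+ cells the summed level of 9 progenitor and radial glia markers was 9.45% of that in GFP- cells, of 4 astrocyte markers 8.74%, of 4 microglia markers 9.58%, of 5 erythroid markers 2.52%, of 4 GABAergic markers 64.0% and of 6 neuron markers 136%. The astrocyte sum was mostly Aldh1l1, which was at 4.06% of its GFP- level, whereas Aqp4 was at 51.3%, S100b at 63.3% and Gfap at 170%, the last 2 not called. None of these markers was at 0 in a whole group. The sorted libraries held 17369191 to 22374153 reads and the time series libraries 17910017 to 33386535, and the lowest mean in the time series gene table was 107 normalized reads, so rarer members are not analysed here over time.

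As background, homeobox factors are drawn on in combinations along the neural tube. DLX factors specify forebrain GABAergic neurons, PAX6 and the Iroquois (IRX) factors pattern the neuroepithelium, LIM factors such as LHX1, LHX5 and ISL1 set interneuron and motor neuron types, and POU4F1 marks neurons of the red nucleus and habenula. PBX and MEIS proteins are widely expressed partners that bind DNA together with other homeodomain proteins.

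RefSeq start sites on GRCm38.p6 were at hand for 49 of the 66 members. MEIS1 and MEIS2 are close relatives with one kind of homeodomain, and their genes stood apart in the sort, so the 250 bases before each start are shown, 5′ to 3′ on the gene's strand, with the homeodomain core TAAT on either strand in capitals.
Meis1, chr11:19018970-19019219, minus strand: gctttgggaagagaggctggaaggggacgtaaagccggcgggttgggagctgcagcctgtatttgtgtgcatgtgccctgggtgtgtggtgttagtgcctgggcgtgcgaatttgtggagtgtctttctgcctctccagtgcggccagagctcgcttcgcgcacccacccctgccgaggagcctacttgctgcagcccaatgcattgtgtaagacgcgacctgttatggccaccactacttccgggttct
Meis2, chr2:116064620-116064869, minus strand: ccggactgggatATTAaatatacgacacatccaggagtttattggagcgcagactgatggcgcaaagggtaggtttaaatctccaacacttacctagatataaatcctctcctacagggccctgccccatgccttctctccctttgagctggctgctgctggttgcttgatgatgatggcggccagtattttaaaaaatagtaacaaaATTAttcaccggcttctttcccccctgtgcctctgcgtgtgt
The Meis2 window is 47.6% G and C with 2 TAAT matches, and the Meis1 window is 59.6% with none, which says only that these letters are not in this window. Over the 49 windows of members the median was 63.6%, against 52.0% over all 27025 promoters of the same length. TAAT stood in 44.9% of member windows and 55.3% of all, and TGACAG, a core bound by MEIS factors, in 20.4% and 16%. The octamer ATGCAAAT of POU factors and the PBX core TGATTGAT, both searched on either strand, were in 0 of the 49 member windows and in 1.61% and 0.696% of all.

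Most of these genes were far lower in GFP+ than in GFP- cells at E14, and a few were higher. Of the 61 members with a mean of at least 5 normalized reads, 47 were lower, 4 higher (Pbx3, Pou6f1 and Pou3f2 among them) and 10 not called (limma-trend on log2 of normalized reads + 1, Benjamini-Hochberg over all 18260 genes tested, threshold 0.05). Over all genes tested, 18.0% were called lower and 12.7% higher. The median log2 fold change of the members was -3.22, against 0.02 over all genes. Irx4 had no read in GFP+ cells, and setting it at its bound could not move that median, since Irx4 lies below it either way. A fall of at least 2-fold was called for 43 of the 61 (11.2% of all genes) and one of at least 8-fold for 32 (2.63%). In either direction 30.7% of all genes were called. The authors' deposited table gave the same counts, 47 lower and 4 higher, of 64 members with an adjusted p. Without overlap between groups, 48 tested members were lower and 5 higher, where 23.5% and 20.5% of all genes were. The 5 members under the mean of 5, Gsx1, Nkx1-1, Pou4f3, Six2 and Evx2, had GFP- means between 2.74 and 6.08 normalized reads and were not tested.

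**Figure D1:**
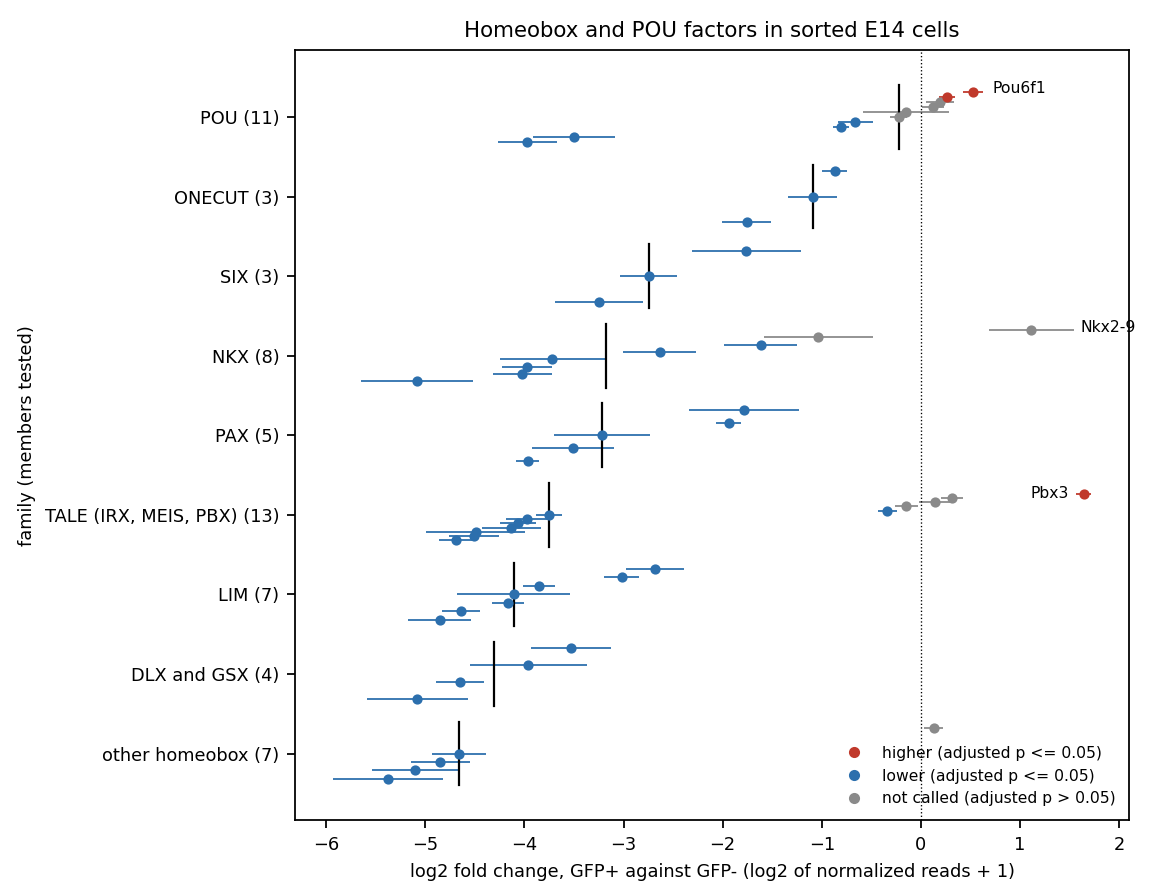
Log2 fold change of GFP+ against GFP- cells at E14 (x axis) for tested members in 9 families (y axis, number tested in brackets). Points are the members reported here with their standard error, black bars are medians over all tested members of a family, and colours give the limma call; the families lie between -4.66 and -0.22, with Pbx3 at 1.64 on the other side of 0.

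Levels in GFP+ cells covered a wide range. At the low end, 32 of the 66 members stood in GFP+ cells at under 10% of their GFP- level, 17 at 10 to 50%, and 17 at 50% or above. Among the 47 called lower the median was 6.24%, and 42 of them had reads in all 3 GFP+ libraries. That is a median over genes, whereas the marker shares given above are of summed levels. The 47 were picked for being lower, so their median is low by that choice, while the marker lists were not picked by call. Gene by gene, this median lies within the ranges of progenitor markers (3.37 to 28.6%) and oligodendrocyte lineage markers (4.01 to 116%). It lies below that of microglia markers (8.12 to 13.5%). It lies above those of erythroid markers (2.18 to 3.02%) and of serotonergic and noradrenergic markers (3.62 to 4.45%). The part of those cell types in the members' values was not tested. In bulk RNA, fewer cells of a type and less RNA per cell cannot be told apart.

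PBX genes, whose TALE homeodomain proteins stabilise the binding of other homeodomain factors, split within 1 family. Pbx3 (chromosome 2, 34171457 to 34373142) went from 2237, 2422 and 2560.5 to 7259, 7599 and 7685, with no overlap and log2 fold change 1.64 (SE 0.08, adjusted p = 3.17e-08). Pbx2 (chromosome 17) was at 1138, 1311 and 1254 in GFP- and at 902, 1064 and 968 in GFP+ cells. Its groups did not overlap and it was lower by -0.34 (SE 0.09, adjusted p = 0.0171), but the call was lost when GFP- library 2, GFP- library 3 or GFP+ library 3 was left out (adjusted p = 0.0796, 0.0673 and 0.0614; range over its alternatives 8.94e-05 to 0.0796). Pbx4, a rarer relative, overlapped between groups at 96.2 to 126 in GFP- and 109.5 to 134 in GFP+ libraries (0.15, SE 0.17, adjusted p = 0.558). Per kilobase of exon, where levels of different genes can be set side by side, Pbx3 stood at 1230.0 normalized reads in GFP+ cells and Pbx2 and Pbx4 at 269 and 54.4.

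Of the MEIS genes, which encode the usual partners of PBX proteins, 1 of 3 was called. Meis2 (chromosome 2, 115863064 to 116065839) fell from 1055, 1302 and 1411 to 83.8, 99.0 and 93.6 normalized reads, with log2 fold change -3.75 (SE 0.13, adjusted p = 3.86e-09). Meis1 (chromosome 11) was at 679, 639 and 674 in GFP- and 723, 545 and 548 in GFP+ cells, so the groups overlapped (-0.15, SE 0.12, adjusted p = 0.382). Its exons overlap those of Gm16140 on the other strand, and strand use is not given, so reads of the pair could not be told apart. Such an overlap was present in 14 of the 66 members. Of these, 12 were called lower, where 77.0% of all tested members were, with Pax5, Nkx2-2, Nkx6-2, Pou3f1, Irx3 and Irx6 among them. Meis3 had 786, 1012 and 919 in GFP- against 992, 1186 and 1191 in GFP+ cells, with 1 GFP- library above the lowest GFP+ library (0.31, SE 0.11, adjusted p = 0.0551). It passed the threshold without GFP- library 2, without GFP+ library 1 or with DESeq2 (adjusted p = 0.0388, 0.0139 and 0.0476; range over its alternatives 0.000303 to 0.182). Without GFP+ library 1, Meis1 too passed, at -0.28 (adjusted p = 0.0454; range 0.0454 to 0.705).

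All 6 Iroquois genes, which pattern the neural tube along both axes, were lower, by -4.69 to -3.98 on the log2 scale. They lie in a group on chromosome 13 (Irx1, Irx2, Irx4) and another on chromosome 8 (Irx3, Irx5, Irx6). Irx2 (72628820 to 72634198 on chromosome 13) stood at 781, 901 and 800.2 in GFP- and at 28.7, 38.9 and 26.6 in GFP+ cells, with log2 fold change -4.69 (SE 0.16, adjusted p = 3.86e-09). Irx1 fell from 588, 661 and 601 to 45.5, 48.1 and 18.1 (-4.13, SE 0.30). Irx3, Irx5 and Irx6 had GFP- means of 414, 374 and 212 normalized reads and GFP+ means of 26.0, 21.5 and 8.40 (log2 fold changes -3.98, -4.07 and -4.51). Irx4 held 71 reads over the GFP- libraries and 0 over the GFP+ libraries, so it was at least 20.6-fold lower at a floor of 3 reads over the GFP+ group. The groups of all 6 genes stood apart without overlap.

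**Figure D2:**
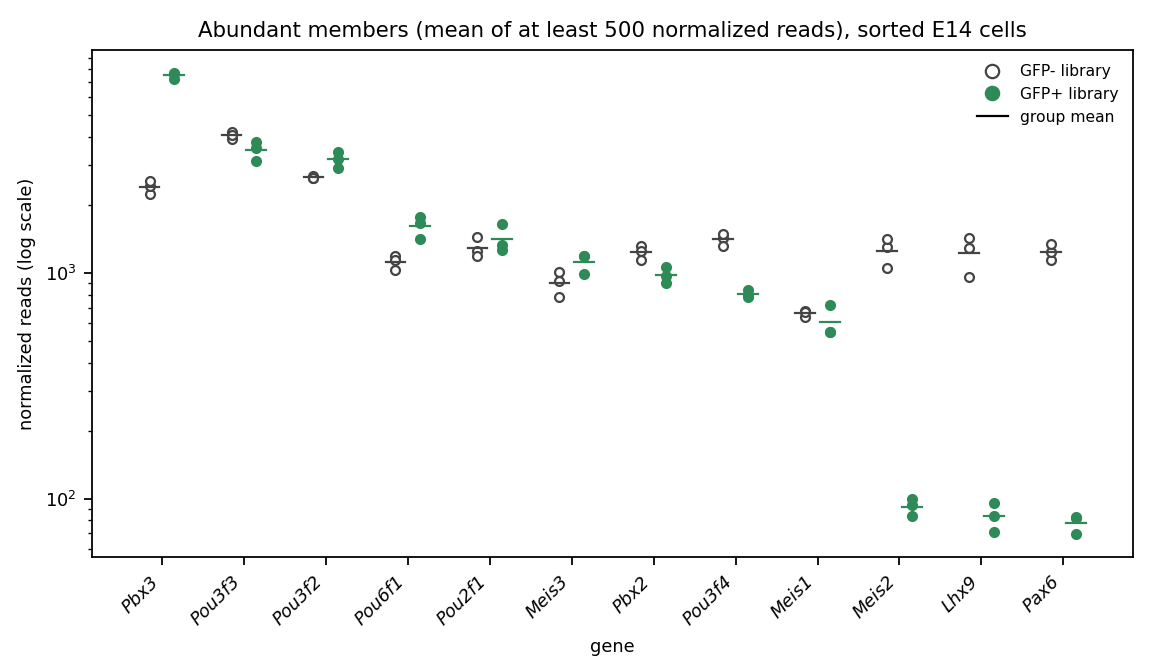
Normalized reads per library (log axis) of members reported here with a mean of at least 500 over the 6 sorted E14 libraries, ordered by their GFP+ mean. Open points are GFP- libraries, filled points GFP+ libraries and lines group means; Pbx3 has GFP+ libraries between 7259 and 7685, and Meis2, Lhx9 and Pax6 are the 3 whose GFP+ libraries lie below 100.

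The POU family had the median nearest 0 of the 9 families: 2 of the 11 tested were higher, 5 lower and 4 not called, at a median of -0.22. The class III genes, which encode the BRN1, BRN2 and BRN4 factors of neural progenitors and young neurons, were abundant in both fractions. Pou3f3 (BRN1, chromosome 1) had 3928, 4229 and 4089 normalized reads in GFP- and 3129, 3583 and 3824 in GFP+ cells, not overlapping but not called (-0.22, SE 0.09, adjusted p = 0.0778; range over its alternatives 0.00227 to 0.232). Pou3f2 (BRN2, chromosome 4) had 2641, 2682 and 2629.6 in GFP- and 2913, 3438 and 3204 in GFP+ cells, and was higher by 0.26 (SE 0.08, adjusted p = 0.0284). That call was lost without GFP- library 2 or 3 or GFP+ library 2 or 3 (adjusted p = 0.0714, 0.0937, 0.121 and 0.0916) and in limma without a trend (0.102; range over its alternatives 0.000505 to 0.121). Pou3f4 (BRN4, X chromosome) fell from 1431, 1494 and 1322 to 786, 801 and 843 (-0.80, SE 0.08, adjusted p = 1.81e-05). Pou3f1 (OCT6) was lower by -0.66 (SE 0.17, adjusted p = 0.0139), a call lost without GFP- library 2 (0.0607; range 0.00131 to 0.0607). Per kilobase of exon the order in GFP- cells was Pou3f3 (551), Pou3f4 (483) and Pou3f2 (474), and in GFP+ cells Pou3f2 (570.0), Pou3f3 (474) and Pou3f4 (277).

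Pou6f1 (BRN5, chromosome 15), a factor of postmitotic neurons, had 1031, 1186 and 1139 normalized reads in GFP- and 1416, 1672 and 1762 in GFP+ cells, higher by 0.53 (SE 0.10, adjusted p = 0.00176) with no overlap. Pou4f1 (BRN3A, chromosome 14) fell from 468, 757 and 1087 to 49.1, 62.0 and 30.8 (-3.97, SE 0.30, adjusted p = 1.36e-06), and Pou4f2 (BRN3B) from a mean of 30.0 to 1.77 normalized reads (-3.50). The broadly expressed Pou2f1 (OCT1) was at 1442, 1256 and 1186 in GFP- and at 1653, 1268 and 1333 in GFP+ cells, overlapping (0.13, SE 0.11, adjusted p = 0.439), and 3007 bases of its exons overlap Cd247 on the other strand. Pou2f2 and Pou5f2 were not called either (0.19 and -0.15, adjusted p = 0.347 and 0.830).

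Every LIM member was lower, 7 of 7, with a median of -4.11. Lhx9 (chromosome 1, 138825186 to 138848577), a gene of thalamic and pretectal neurons, stood at 1431, 1291 and 960.2 in GFP- and 83.8, 95.3 and 71.2 in GFP+ cells (-3.85, SE 0.16). Lhx5, an interneuron factor, fell from 615, 737 and 871 to 40.7, 35.2 and 44.7 (-4.16, SE 0.16), and its partner Lhx1 from 471, 526 and 550.1 to 53.8, 82.3 and 55.3 (-3.02, SE 0.17). Isl1, needed by motor neurons, fell from 715, 646 and 665 to 28.7, 32.4 and 19.1 (-4.64, SE 0.19). Lhx2 fell from 429, 371 and 239.6 to 15.6, 12.03 and 6.38 (-4.85, SE 0.32). In each of these genes the lowest GFP- library was well above the highest GFP+ library. Lhx4 and Lhx6 were lower by -2.68 and -4.11.

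The 4 tested DLX genes, which encode factors of forebrain GABAergic neurons, were all lower, in 2 neighbouring pairs. Dlx1 and Dlx2 lie 9426 bases apart on chromosome 2 and Dlx6 and Dlx5 lie 9236 bases apart on chromosome 6. Dlx1 stood at 579, 709 and 840.4 normalized reads in GFP- and 20.3, 40.7 and 23.4 in GFP+ cells (-4.65, SE 0.24, adjusted p = 6.51e-08). Dlx6 stood at 161, 229 and 247 in GFP- and 3.59, 15.7 and 2.13 in GFP+ cells (-5.08, SE 0.51, adjusted p = 1.41e-05). Dlx2 and Dlx5 were lower by -3.53 and -3.96 at GFP- means of 30.5 and 44.6. The noncoding genes beside these loci fell with them, Dlx1as by -4.32 and Dlx6os1 by -4.78, but Dlx1 shares 335 bases of exon with Dlx1as on the other strand, and Dlx6 overlaps Dlx6os2. Of the 12 noncoding neighbours of members listed, 7 were tested and all 7 were lower, where 18.0% of all genes were. Among them were Six3os1 at -3.61 and Pantr1, beside Pou3f3, at -1.23. Six3 and Nkx2-2 also share exon bases with Six3os1 and Nkx2-2os on the other strand.

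GABAergic markers were split, with 2 of 4 higher and 2 lower. Gad1, a GABA-synthesising enzyme, was at 7.91% of its GFP- level in GFP+ cells (log2 fold change -3.73), but Gad2, the other such enzyme, was at 117% (0.23, adjusted p = 0.0299) and Slc32a1, the vesicular GABA transporter, at 224% (1.16, adjusted p = 0.000102). Among 18 tested non-homeobox partners of other midbrain and forebrain lineages, 13 were lower, such as Tal1 (-4.46), which specifies midbrain GABAergic neurons, and Olig2 (-4.63), a progenitor factor. The 3 higher ones, Lmo4 (1.19), Lmo3 (1.09) and Ldb1 (0.47), encode LIM-only and LIM-binding proteins. Other genes of these kinds differed, with Lmo1 at 7.29% of its GFP- level in GFP+ cells and Ldb2 at 106%. By contrast, 12 of 15 midbrain dopamine specification factors were higher and 1 was lower. The difference between these lists was not tested.

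PAX genes were lower in 5 of 5 cases. Pax6 (chromosome 2, 105668900 to 105697364), a master gene of eye and forebrain, had 1143, 1233 and 1337 normalized reads in GFP- and 69.4, 82.3 and 82.9 in GFP+ cells (-3.97, SE 0.12, adjusted p = 1.63e-09). Pax5, a gene of the midbrain and hindbrain boundary, fell less, from 469, 536 and 430.2 to 123, 129 and 119 (-1.94, SE 0.12, adjusted p = 3.68e-07), so that GFP+ cells kept 25.8% of the GFP- level. Pax7 and Pax8 fell by -3.51 and -3.22 from GFP- means of 39.1 and 24.3. Pax3, at 26.9, 14 and 11.4 against 9.57, 1.85 and 3.19, was lower by -1.79 (SE 0.55, adjusted p = 0.0296). Its call was lost without GFP- library 1 or 2 or GFP+ library 2 or 3 (adjusted p = 0.101, 0.0695, 0.0877 and 0.0939; range over its alternatives 0.00241 to 0.101).

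NKX genes, most of which define ventral progenitor domains and hypothalamic neurons, were lower in 6 of 8 tested cases. Nkx2-2 fell from 160.4, 214 and 211 to 8.38, 14.8 and 11.7 (-3.98, SE 0.26), and Nkx6-2 from 98.0, 173 and 206 to 8.38, 8.33 and 8.51 (-4.02, SE 0.30). Nkx6-1, a gene of ventral midbrain progenitors and motor neurons, fell least of the 6, from 38.7, 83.1 and 112 to 16.8, 26.8 and 25.5 (-1.62, SE 0.37, adjusted p = 0.00595). Nkx2-4 fell by -5.08 and Nkx2-1, a gene of the hypothalamus, by -3.72. Nkx2-9 lies 74480 bases from Nkx2-1 on chromosome 12 and went the other way, at 10.8, 14 and 4.37 in GFP- and 20.3, 17.6 and 23.4 in GFP+ cells. All its GFP+ libraries were above its GFP- libraries, but the difference did not pass (1.12, SE 0.43, adjusted p = 0.0699; range over its alternatives 0.0285 to 0.241), and these are 31 and 58 reads in all.

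Among the ONECUT and sine oculis genes and the single homeobox genes, 12 of 13 tested were lower. Onecut2 (chromosome 18), a cut-homeobox gene known in several neuron types, was the most abundant of its family at 633, 547 and 517 in GFP- and 352, 265 and 314 in GFP+ cells (-0.87, SE 0.13, adjusted p = 0.000302). Onecut1 and Onecut3 fell by -1.09 and -1.75. Barhl2 and Barhl1, diencephalic genes, fell from GFP- means of 410.0 and 203 to 14.2 and 7.03 (-4.85 and -4.66), and the progenitor genes Dbx1 and Dbx2 fell by -5.38 and -5.10. Six3, a forebrain gene, fell by -2.75. The call of Six4 (-1.76, adjusted p = 0.0304) was lost without any 1 GFP- library (0.0809, 0.0756 and 0.0758) or GFP+ library 2 (0.0758) and in DESeq2 (0.0549; range 0.00582 to 0.0809). Uncx, a paired-type homeobox gene, was the exception at 494, 417 and 470.5 in GFP- and 492, 499 and 518 in GFP+ cells, with overlapping groups (0.13, SE 0.10, adjusted p = 0.364).

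The GFP- libraries differed from each other in these genes more than in most. Of the 55 members with a GFP- mean of at least 20, 10 (18.2%) had a highest library at least 2-fold above the lowest, against 3.97% of 14542 genes, and the median coefficient of variation was 13.7% against 9.38%. Genes were not matched for level in this comparison. Counting error is larger in low members such as Pax8 and Nkx1-2, with 80 and 158 reads over the GFP- libraries. Nkx2-4 had 404, 187 and 96.2 normalized reads in GFP- libraries 1, 2 and 3, Nkx2-1 had 144, 72.6 and 35.0, and Dbx1 had 161, 62.1 and 42.8. These 3 genes were highest in library 1. Pou4f1 had 468, 757 and 1087 and Nkx6-1 had 38.7, 83.1 and 112. Both were highest in library 3, as were Nkx6-2, Lhx4 (71.0, 127 and 145) and Nkx1-2, whereas Pax8 was highest in library 2. Nkx2-4 and Nkx2-1 thus ran in the opposite order to Pou4f1 and Nkx6-1 across the same libraries, which is a description with no test. All 10 were called lower in GFP+ cells whichever library was left out.

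**Figure D3:**
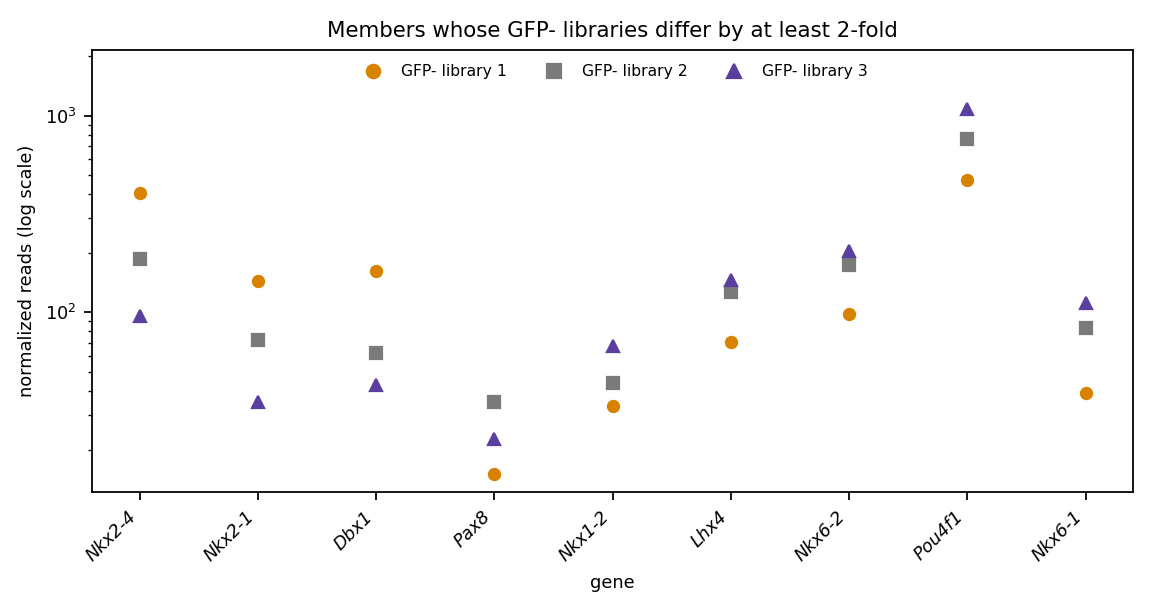
Normalized reads (log axis) in each of the 3 GFP- libraries for members reported here with a GFP- mean of at least 20 whose highest library was at least 2-fold above the lowest, ordered by the ratio of library 1 to library 3. Marker shapes are libraries; Nkx2-4, Nkx2-1 and Dbx1 are highest in library 1, and Nkx6-1 and Pou4f1 in library 3.

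From E14 to P0, nearly all members measured over time fell in GFP+ cells. Each of the 13 genes had at least 54.8% of its GFP- level in the sort, where 4 had been called higher, 3 lower and 6 not called. Members rare in GFP+ cells could not be among the 13, since the time series held no gene under the lowest mean given above. Not every absent member was rarer in the sort than those present. Pou2f2, with a GFP+ mean of 196 there, was absent, and Pbx4, with 121, was present. Between E14 and P0, 11 were lower and 2 higher, where 30.6% of the 10781 genes were called lower and 25.1% higher, with a median log2 fold change of -0.74 against -0.05. All 11 had every P0 library below every E14 library (background 36.2%), and 7 also fell at each age with no overlap (8.13%). From E14 to E16, 8 were lower and 0 higher (17.8% and 15.2% of all genes), and from E16 to P0, 6 were lower and 1 higher (16.6% and 16.8%). For the 0 higher, 10 members had an unadjusted p under 0.05 in limma, all of them lower, and the authors' deposited table gave 0 higher and 10 lower. E14 to P0 shares its libraries with both shorter intervals. The 14 dopamine specification factors in that table moved likewise, 13 lower and 0 higher from E14 to P0.

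**Figure D4:**
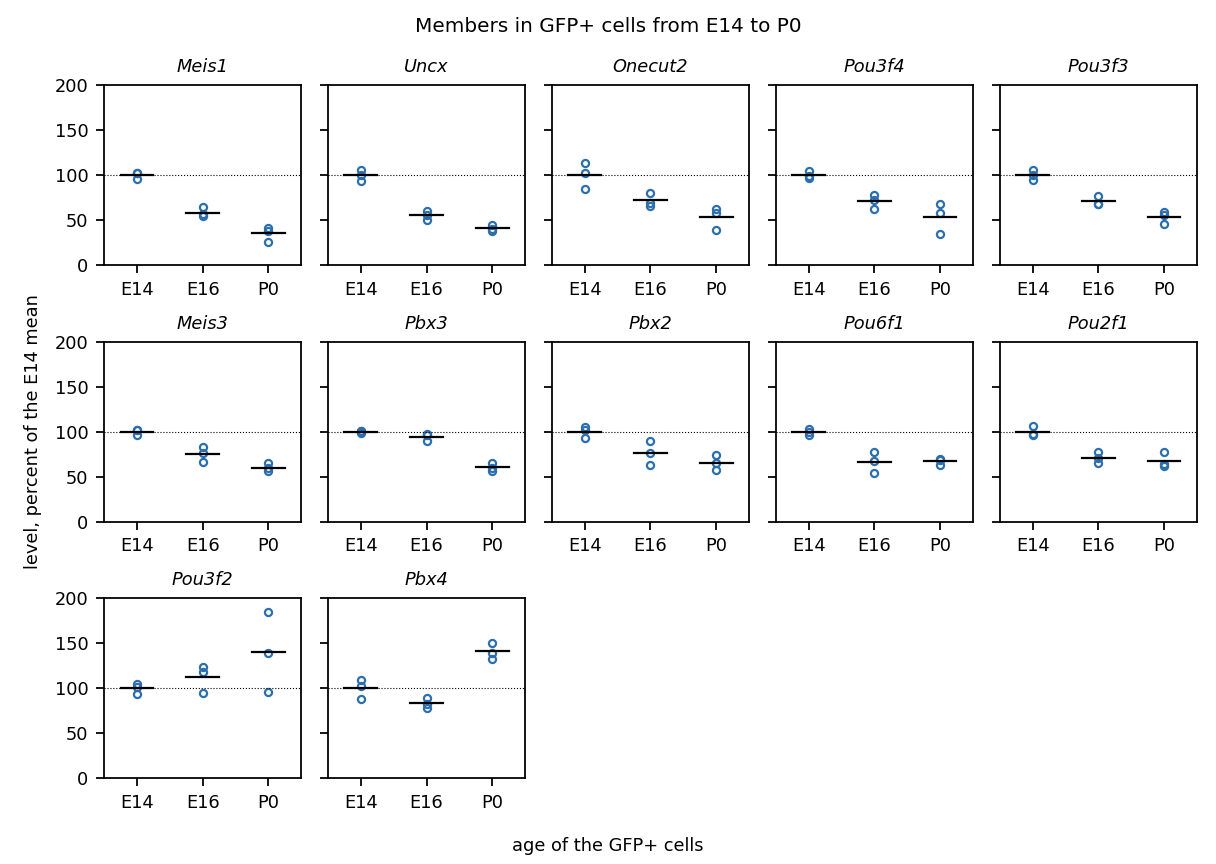
Level of each member reported here in the GFP+ libraries at E14, E16 and P0 (x axis), as a percent of its own E14 mean (y axis). Open points are libraries and bars are means; Meis1 is lowest at P0 with 35.1% of its E14 mean, while Pou3f2 and Pbx4 end at 139.9% and 141%.

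Among the PBX genes, Pbx3 and Pbx2 ended lower at P0 and Pbx4 ended higher. Pbx3 was at 10339, 10091 and 10349.7 at E14, at 9948, 9148 and 9884 at E16, and at 5813, 6120 and 6660 at P0. Its change up to E16 was not called (-0.09, SE 0.07, adjusted p = 0.376), and after it the gene was lower by -0.64 (SE 0.07, adjusted p = 3.20e-05). At P0, Pbx3 stood at 60.4% of its E14 mean.

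Pbx4 took the opposite course. It had 174, 140.4 and 162 normalized reads at E14, 131, 141 and 124 at E16, and 221, 239.5 and 211 at P0. Its P0 libraries lay above all others, a log2 fold change from E16 of 0.76 (SE 0.14, adjusted p = 0.00124) and from E14 of 0.50 (adjusted p = 0.00777). Pbx2 fell from 1046, 1152 and 1179 to 647, 730 and 828 at P0 (-0.62, SE 0.12, adjusted p = 0.000749). Its step from E14 to E16 (-0.40, adjusted p = 0.0230) was lost without E14 library 2 or 3 or E16 library 1 or 3 (adjusted p = 0.0727, 0.0797, 0.0949 and 0.0556; range over its alternatives 0.00440 to 0.0949). Its step from E16 to P0 (-0.22, adjusted p = 0.191) passed without E16 library 1 (0.0406; range 0.0406 to 0.552).

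Meis1 and Uncx had the 2 largest falls. Meis1 went from 625, 582 and 626 at E14 to 344, 332 and 394 at E16 and 234, 253 and 156 at P0, each age below the one before (E14 to P0 -1.54, SE 0.16, adjusted p = 1.88e-06). Uncx went from 396, 369 and 419 to 199, 219 and 236 and then to 149, 176 and 156 (-1.30, SE 0.13, adjusted p = 1.21e-06). Its later step (-0.44, adjusted p = 0.0164) was lost without E16 library 3 or P0 library 1 (adjusted p = 0.0737 and 0.0529; range over its alternatives 0.00665 to 0.0737). Meis3 fell from 1226, 1295 and 1304 to 839, 1052 and 973 and to 756, 824 and 718 (-0.74, SE 0.10, adjusted p = 1.88e-05). The later step of Meis3 (-0.31, adjusted p = 0.0228) was lost without E16 library 2 or 3 or P0 library 1 or 3 (adjusted p = 0.0710, 0.0756, 0.0551 and 0.0701; range 0.00654 to 0.0756). Neither Meis1 nor Uncx had differed between GFP+ and GFP- cells past the threshold at E14.

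Of the POU genes over time, 4 of 5 were lower at P0 than at E14. Pou3f3 fell from 3619, 3409.7 and 3829 at E14 to 2438, 2477 and 2782 at E16 and 1662, 2024 and 2152 at P0, with no overlap (E14 to P0 -0.90, SE 0.10, adjusted p = 2.94e-06). Pou3f4 fell from 828, 900.5 and 849.9 at E14 to 295, 499 and 581 at P0 (-0.96, SE 0.19, adjusted p = 0.000586), with E16 at 531, 625 and 666. Neither of its steps passed (adjusted p = 0.0507 and 0.0742), but the earlier did without P0 library 1 or 3 (0.00282 and 0.0228; range over its alternatives 0.00282 to 0.146) and the later without P0 library 3 (0.0137; range 0.0137 to 0.322). Pou3f2, by contrast, had 3994, 4481 and 4356 at E14, 5033, 4065 and 5282 at E16, and 4078, 5949 and 7921 at P0. Its P0 libraries were spread widely and overlapped those at E14, and the change from E14 to P0 was 0.43 (SE 0.17, adjusted p = 0.0461). That call was lost without any 1 E14 library (adjusted p = 0.128, 0.0696 and 0.0833), E16 library 3 (0.0527) or P0 library 2 or 3 (0.112 and 0.240) and in limma without a trend (0.0817; range over its alternatives 0.000628 to 0.240), and it was not made in the authors' deposited table (adjusted p = 0.0730). From E16 to P0 its change (0.28, adjusted p = 0.237) passed without P0 library 1, at 0.53 (0.00915; range 0.00915 to 0.826). Per kilobase of exon, Pou3f2 went from 766 at E14 to 1071 at P0 while Pou3f3 went from 488 to 263.

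Pou6f1 and Pou2f1 were called lower from E14 to E16 and not called from E16 to P0. Pou6f1 had 1460, 1566 and 1518 normalized reads at E14, 811, 1179 and 1028 at E16 and 945, 1035 and 1060 at P0, with log2 fold changes of -0.61 (SE 0.11, adjusted p = 0.00111) and 0.03 (SE 0.11, adjusted p = 0.881). Pou2f1 had 1809, 1629 and 1647 at E14, 1311, 1111 and 1202 at E16 and 1304, 1057 and 1091 at P0 (-0.49, adjusted p = 0.00154, and -0.07, adjusted p = 0.589). Onecut2 fell from 326, 244 and 294 at E14 to 232, 191 and 200.3 at E16 and 167, 181 and 112 at P0, called only over the whole span (-0.93, SE 0.18, adjusted p = 0.000604). Neither of its steps passed (-0.47 and -0.46, adjusted p = 0.0626 and 0.0622), although its 3 ages did not overlap. The earlier step passed without E14 library 2 or P0 library 3 (adjusted p = 0.0498 and 0.0217; range over its alternatives 0.0217 to 0.20), and the later one without P0 library 2 (0.0424; range 0.0424 to 0.253).

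The change after E16 differed from the change before it in 3 of the 13 members, against 13.6% of all genes: Pbx3 (-0.55), Pbx4 (1.02) and Pou6f1 (0.63). Pbx3 was lower by more after E16 than before it, and Pbx4 and Pou6f1 had the higher change after it. Intervals were compared by their total change, not by change per day. The calls of all 3 were lost without E16 library 3 (adjusted p = 0.0652, 0.0750 and 0.110), and that of Pou6f1 also without any of 7 other single libraries (0.0526 to 0.213). The ranges over the alternatives were 0.00557 to 0.0652 for Pbx3, 0.00588 to 0.0750 for Pbx4 and 0.00997 to 0.213 for Pou6f1.

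A circRNA of Pbx3 was among the few that passed in the sort. In the authors' deposited table, 11 of the 958 circRNAs with an adjusted p passed 0.05 (1.15%), 10 of them higher in GFP+ cells. Of 3 circRNAs from member genes with an adjusted p, 2 were among them. A circle of Pbx3, circ_00057_Pbx3, had 17, 16 and 23 reads in the GFP- libraries, and the authors' deposited table gave log2 fold change 1.29 (SE 0.35, adjusted p = 0.0273). For comparison, the gene Pbx3 was higher by 1.64. A second circle of Pbx3, circ_00276_Pbx3, had 4, 6 and 9 reads and did not pass in the authors' deposited table (adjusted p = 0.762). The circles of Onecut2, Pou2f1 and Pax5 had no adjusted p there.

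Over time no circle of a member gene passed. Of 1630 circRNAs tested, 4 came from members, and 0 of the 4 were called from E14 to E16, from E16 to P0 or from E14 to P0, where 0%, 0.245% and 3.19% of all were. At an unadjusted p under 0.05 limma gave 1, 0 and 1 of the 4, and the authors' deposited tables gave 0 past the threshold in each comparison. The 1 was circ_00114_Pbx3, which had 0, 0 and 64 reads at E14, 51, 21 and 73 at E16, and 20, 9 and 16 at P0. E14 library 3 stood alone among the E14 libraries, while the gene Pbx3 was even across them (10339, 10091 and 10349.7 normalized reads). Without that library the circle was called from E14 to E16 and from E14 to P0 (adjusted p = 0.000249 and 0.000849; ranges over the alternatives 0.000249 to 0.996 and 0.000849 to 0.574). The other Pbx3 circle, circ_00198_Pbx3, had 37, 18 and 24 reads at E14, 22, 15 and 23 at E16, and 2, 7 and 16 at P0 (E14 to P0 -1.04, SE 0.54, adjusted p = 0.301). For the ratio of circle to gene, 3 circles were tested and 0 called in any interval, where 0%, 0.0642% and 0.706% of all ratios were called from E14 to E16, from E16 to P0 and from E14 to P0, with 1, 1 and 0 of the 3 at an unadjusted p under 0.05 from E14 to E16, from E14 to P0 and from E16 to P0. Circles are numbered by table, so those of the sort and of the time series were not matched.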

How the data were processed

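The authors deposited normalized reads per gene and per circRNA (a signal unit) and comparison tables with log2 fold changes, SEs and p-values, per the file headers. Trim Galore, TopHat2, DESeq2, GRCm38 and mm10 are named, without versions, in the submitters' processing notes; the read counter, the use of strand and the circRNA caller are not given in the sources used here. In the sorted gene table the values themselves showed whole reads divided by 1 factor per library (100% within 0.1 read).

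Genes with a mean of at least 5 and circRNAs with a mean of at least 2 entered a two-sided limma-trend fit of log2(normalized reads + 1). P-values were adjusted over all features by Benjamini-Hochberg, with a threshold of 0.05, in limma 3.58.1 under R 4.3.3. Fold changes on this scale understate the change of low genes. The 6 sorted libraries were fitted together, and the 9 time series libraries in a fit of their own; levels are not compared between the tables. Alternatives were other pseudocounts and filters, TMM, limma without a trend, a replicate block, single libraries left out, and, on recovered reads, edgeR 4.0.16 and DESeq2 1.42.0. CircRNA columns in hand for the sort cover GFP- libraries, so that comparison is the authors'. Counting floors cover counting error only. The limma fits of genes in the sort and from E14 to P0 were tested on simulated data.

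Named with values were members called higher, up to 5 falls per family with a mean of at least 50, members with a mean of at least 500, all members in the time series, and circRNAs that passed or were the most abundant of their host. Others were added to complete a family after their values were seen. Some members are counted but not reported here by name. Members and lists were chosen with earlier results of these data known. Positions are GENCODE M21 on GRCm38.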

Additional observations from a re-analysis of the deposited data

Results flagged for a closer look

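In 3 members the change after E16 differed from the change before it by the test of that difference (limma-trend, 9 libraries). That test takes the total change of each interval and not a rate per day. Pbx3 had a difference of -0.55 on the log2 scale (SE 0.13, adjusted p = 0.0116), with all P0 libraries below all E16 libraries. Pbx4 had a difference of 1.02 (SE 0.24, adjusted p = 0.0144), with all P0 libraries above all E16 libraries. Pou6f1 had a difference of 0.63 (SE 0.20, adjusted p = 0.0487), with E16 and P0 libraries overlapping. The groups hold 3 libraries each, so no test for a library far from the rest of its group was made.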

How the results depend on the processing

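Of the settings tried on single members, 1614 kept direction and side of the threshold, 53 lost a call, 20 gained one and 2 reversed, the change of Pou6f1 from E16 to P0, which was -0.12 without E16 replicate 1, -0.01 without P0 replicate 3 and 0.15 at most, without E16 replicate 2. In the sort, 8466 of all genes were called with the replicate block, and 29 members were called lower when a mean of at least 50 was required, where fewer genes were tested. Leaving out single libraries gave 42 to 48 members lower and 3 to 5 higher in the sort. From E14 to P0, 1 member was higher in limma without a trend, and 1 to 2 when single libraries were left out; from E16 to P0 the range was 1 to 2. For the change after against before E16, 1 member was higher with TMM and in limma without a trend, and leaving out single libraries gave 0 to 2 higher, 0 to 1 lower and 625 to 1801 of all genes called (1468 with all libraries, 625 without E16 library 3, 887 without P0 library 2 and 976 without E14 library 2). Among circRNAs, leaving out single libraries gave 0 to 1 higher from E14 to E16 and from E14 to P0. Whether replicate numbers pair the libraries is not known. Same-numbered GFP- and GFP+ libraries correlated at 0.367, 0.120 and 0.0976 in their deviations over genes, and differently numbered ones at -0.297 to 0.229. GFP- library 3 correlated best with GFP+ library 2 (0.229). The main fit took the libraries as unpaired and called 5599 genes in the sort. On the recovered reads, edgeR called 5541 genes in the sort and DESeq2 5502, with 47 and 46 members lower and 4 and 5 higher. With the replicate block 48 members were lower and 6 higher in the sort, and Pou3f3 (adjusted p = 0.00227), Meis3 (0.000303) and Nkx2-9 (0.0285) passed there. The causes were not tested. Depth limits members near 5 normalized reads and circles with a handful of reads.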
